A study of Mus musculus with 10 samples.

Results

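The genes described here are the metallothioneins Mt1 and Mt2, the zinc sensor Mtf1 and the zinc transporters Slc30a1, Slc30a7, Slc39a5, Slc39a8 and Slc39a14. They were chosen by name, with the difference between genotypes in these kidneys already known, and all 8 are among the 13837 genes of the deposited values. Whole kidneys were taken from 3-month-old mice, 5 of them wild type at Rragc (Rragc+/+) and 5 heterozygous for a knock-in of the S74N mutation (Rragc S74N/+, labelled KI/+, and called knock-in here), with 1 library per mouse. Rragc encodes RagC, a small GTPase that passes nutrient signals to the kinase complex mTORC1, and the S74N form is an activating mutant. The allele was made in C57BL/6 mice with Cas9, a guide RNA and a repair oligonucleotide, every cell of the mouse carries it, and homozygotes are not viable, so that the knock-in kidneys also hold a wild-type copy. The labels do not give the sex of the mice. The Y-linked transcripts Ddx3y, Eif2s3y, Kdm5d and Uty were counted in all 10 kidneys.

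Metallothioneins are small, cysteine-rich proteins that bind zinc and copper, and cadmium where it is present, and in the kidney they are made mainly in the tubules. Their transcription is driven by Mtf1, which binds DNA at metal response elements when free zinc rises, and also by glucocorticoids and oxidative stress. Zinc leaves the cytosol through the ZnT family (Slc30), either across the plasma membrane or into organelles, and enters it through the ZIP family (Slc39). Metallothionein transcripts are widely used as a readout of free zinc in cells. The values used here are transcripts, and zinc itself was not measured in them.

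Libraries were made from the 3′ ends of poly(A) transcripts (QuantSeq), so a transcript gives about the same number of reads whatever its length, and levels of different genes can be set side by side as normalized counts, which are reads divided by a size factor of the library. Reads on genes numbered 6501552 to 7856363 per Rragc+/+ kidney and 6872310 to 7996087 per Rragc S74N/+ kidney. The library codes fall in a pair of runs, 38 to 40 with 2 Rragc+/+ mice and 1 Rragc S74N/+ mouse, and 53 to 66 with 3 and 4. The mitochondrial share of reads was 24.5% to 30.1% (median 28.7%) in Rragc+/+ and 23.9% to 27.1% (median 24.8%) in Rragc S74N/+ kidneys. Among codes 53 to 66 it was 28.7% to 30.1% against 23.9% to 25.8%. Its part in the differences between genotypes was not tested. Rragc itself had 244 to 347 normalized counts in wild-type and 189 to 248 in knock-in kidneys (log2 fold change -0.40, SE 0.12, limma adjusted p = 0.0678, and 0.0312 by DESeq2 on recovered reads, the only 1 of 22 alternatives in which it passed), which is a transcript level and no check of the base change. Markers of the tubule segments were present in every kidney. Markers of the adrenal gland (5 genes) were not in the table, and of 7 pancreatic acinar markers Cela1 alone was. Of 4 adipose markers, Cfd alone was in the table.

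Mt1 and Mt2 lie side by side on chromosome 8, both on the + strand. In GRCm38 with the GENCODE vM21 annotation, Mt2 spans chr8:94172664-94173568 and Mt1 chr8:94179082-94180327, with 5513 bases between them. The expression values were made on GRCm39, and no coordinate was converted. The longest annotated transcripts of both genes have 3 exons. Within the last 300 bases of these transcripts, where the reads of this method fall, Mt1 and Mt2 share 0 of 270 stretches of 31 bases. This counts exact matches, while the alignment allowed 3 mismatches, and whether reads aligned to both genes was not tested. The DNA before each start site was searched for metal response elements, which Mtf1 binds, and is shown here. Each sequence holds the 250 bases before the RefSeq start (GRCm38.p6, + strand, chr8:94178839-94179088 for Mt1 and chr8:94172368-94172617 for Mt2), and capitals mark matches to the core of the metal response element, searched as TGCACNC and TGCGCNC on both strands.

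Mt1: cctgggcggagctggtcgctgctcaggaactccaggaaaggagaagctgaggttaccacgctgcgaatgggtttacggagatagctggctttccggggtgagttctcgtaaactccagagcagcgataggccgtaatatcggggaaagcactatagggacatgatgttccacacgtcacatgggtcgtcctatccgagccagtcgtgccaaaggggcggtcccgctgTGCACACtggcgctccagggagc
Mt2: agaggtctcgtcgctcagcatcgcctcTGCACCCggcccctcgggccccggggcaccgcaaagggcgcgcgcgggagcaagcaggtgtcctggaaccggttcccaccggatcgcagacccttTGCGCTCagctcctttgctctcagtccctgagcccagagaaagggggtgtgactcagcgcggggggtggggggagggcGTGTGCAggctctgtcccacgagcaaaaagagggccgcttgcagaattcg

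The Mt2 window holds 3 matches, at 223, 128 and 50 bases before the start, the last on the opposite strand. The Mt1 window holds 1, at 23 bases before the start, and 2 more matches begin 3 and 21 bases after it. Past the Mt2 start 1 more match begins at 5 bases, so that the 300 bases around the start hold 4 matches in Mt2 and 3 in Mt1. Annotated Mt1 transcripts also start downstream, at 94179211 and 94179241. The 2 Mt1 matches after the RefSeq start lie before these starts, and the bases just before these starts lie outside the 300 bases searched. The counts therefore hold for the RefSeq starts only and do not compare how many elements Mt1 and Mt2 have. Of 32851 RefSeq windows of the 250 bases before a start, 21.4% hold at least 1 match and 1.26% at least 3. Of the 8 genes, 7 were matched to a RefSeq window by symbol, and 5 of these have a match before a start (Mt1, Mt2, Slc30a1, Slc39a5 and Slc39a8), with 1 each in Slc30a1, Slc39a5 and Slc39a8, and Slc30a1 has 1 more at 31 bases after its start. No window was matched for Slc39a14. A match is a run of letters and does not show that Mtf1 is bound.

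Mt1 was lower in every knock-in kidney than in every wild-type kidney, at 39.7% of the wild-type level. The 5 wild-type kidneys had 1549, 1432, 1573, 1354 and 1354 normalized counts of Mt1. The 5 knock-in kidneys had 533, 513, 624, 539 and 676. The groups were far apart, with 678 normalized counts between the lowest wild-type and the highest knock-in kidney, and the spread within each group was small beside that gap. The means were 1452 ± 105 (SD, n = 5) and 577 ± 70.0 (SD, n = 5), a 2.52-fold difference and a log2 fold change of -1.34 (SE 0.091). Ranked by mean level, Mt1 stood at place 596 of the 13837 genes in wild-type and at place 1770 in knock-in kidneys. Of the genes tested, 64 had a more negative log2 fold change.

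Mt2 was lower too, by a smaller factor and with an overlap. Its normalized counts were 454, 427, 418, 364 and 298 in wild-type kidneys. In knock-in kidneys they were 231, 256, 222, 193 and 360. Of the 5 knock-in kidneys, 4 were below the lowest wild-type kidney, while knock-in replicate 5, at 360, lay among the wild-type values. The means were 392 ± 61.9 (SD, n = 5) and 252 ± 64.3 (SD, n = 5), a 1.55-fold difference and a log2 fold change of -0.65 (SE 0.15), or -0.79 without knock-in replicate 5.

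Mt1 and Mt2 were the genes of the 8 that passed the threshold (limma across all genes, adjusted p under 0.05), both as lower in knock-in kidneys. Of all 13197 genes tested, 3.69% passed, 2.02% as lower. Because the genes were chosen with this contrast known, their differences are a description and carry no test. Mt1 passed in all 22 alternative analyses. Mt2 passed in 19 of 22, and did not pass among the library codes 53 to 66 alone (log2 fold change -0.51, SE 0.19, against -1.28, SE 0.11, for Mt1), without knock-in replicate 4 (-0.56), or with limma without a trend of the variance (-0.65). In whole tissue, fewer cells that express a gene and less RNA per cell cannot be told apart.

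**Figure D1:**
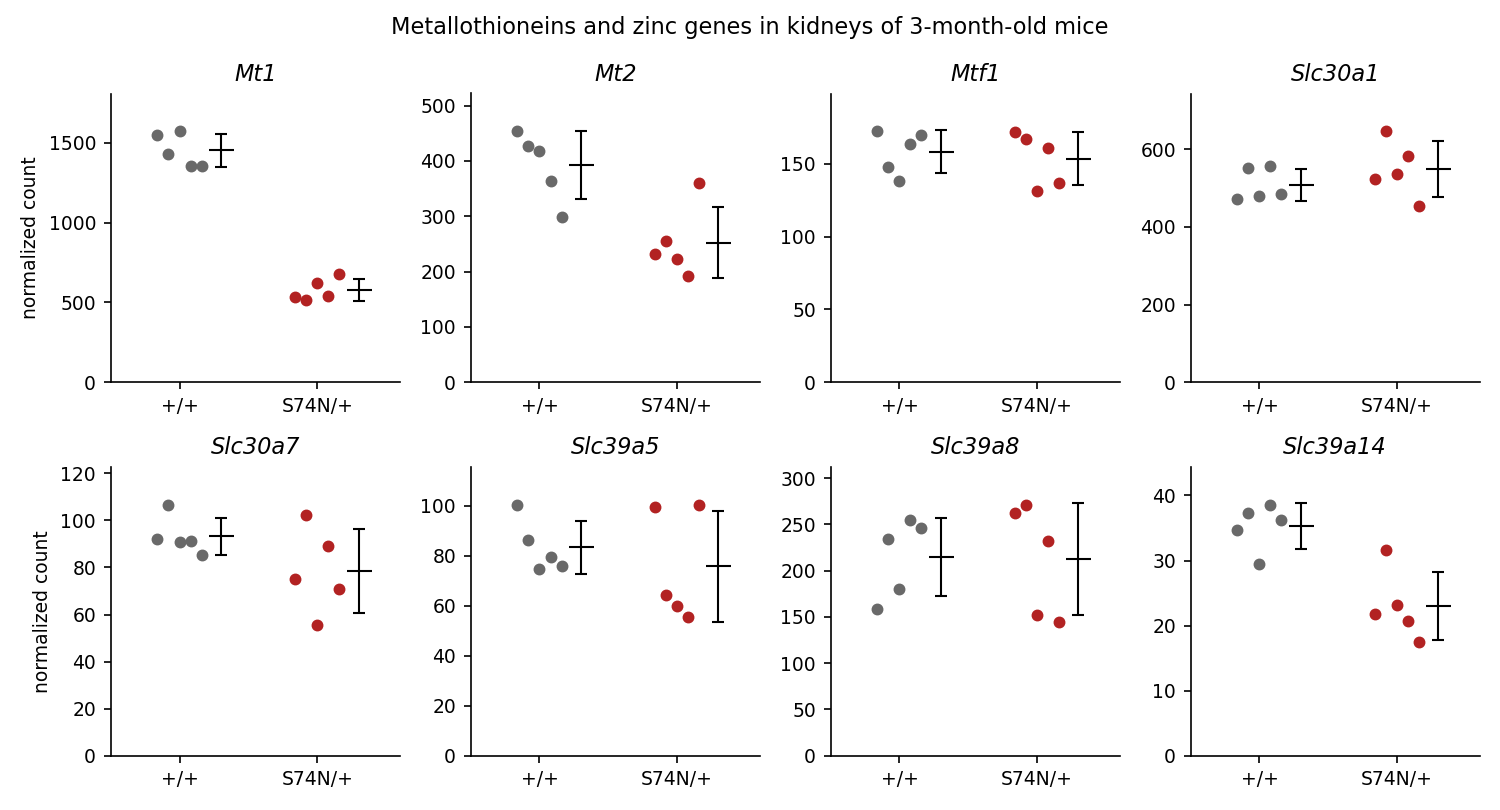
Normalized counts (y axis, from 0) of the 8 genes in each kidney, with +/+ in grey and S74N/+ in red, 1 point per mouse, and the mean ± SD (n = 5) in black beside the points. Mt1 is the gene whose groups do not overlap, with wild-type kidneys from 1354 to 1573 and knock-in kidneys from 513 to 676.

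Since Mt1 was lower by more than Mt2, their ratio differed between genotypes. Mt1 was 3.76 ± 0.475 (SD, n = 5) times as abundant as Mt2 in wild-type kidneys, with a range of 3.35 to 4.54. In knock-in kidneys the ratio was 2.36 ± 0.435 (SD, n = 5), with a range of 1.88 to 2.82, so the ranges did not overlap. The sum of Mt1 and Mt2 was 1845 ± 158 (SD, n = 5) against 829 ± 123 (SD, n = 5) normalized counts, so that knock-in kidneys held 45.0% of the wild-type sum. Leaving out each mouse in turn moved the difference in ratio (S74N/+ minus +/+) between -1.51 and -1.20.

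**Figure D2:**
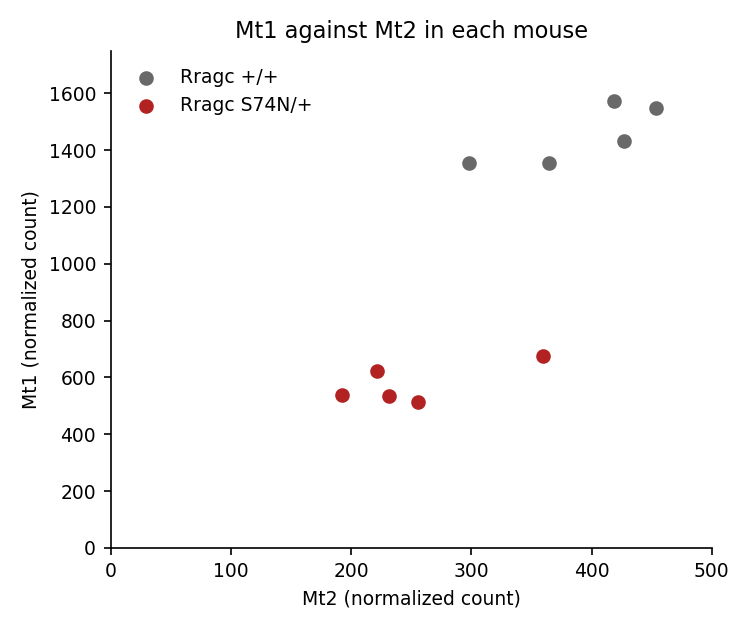
Mt1 (y axis) against Mt2 (x axis), both in normalized counts from 0, with 1 point per mouse, +/+ in grey and S74N/+ in red. The genotypes separate along Mt1, with 1354 or more in wild-type and 676 or fewer in knock-in mice, while on Mt2 the knock-in mouse at 360 lies among the wild-type mice.

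Mtf1, the transcription factor that senses zinc, differed between genotypes by less than the spread between mice. It had 138 to 173 normalized counts in wild-type and 131 to 172 in knock-in kidneys, with means of 158 ± 14.8 (SD, n = 5) and 154 ± 18.3 (SD, n = 5). Its log2 fold change was -0.047 (SE 0.12) and became 0.0076 without knock-in replicate 3. Mtf1 lies at chr4:124802104-124849800 in GRCm38, 865 kb beyond the edited Rragc gene (chr4:123917446-123936997) on the same chromosome. The level of the transcript does not measure the activity of the protein, which depends on zinc.

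Slc30a1 encodes ZnT1, which exports zinc across the plasma membrane and, like the metallothioneins, is a target of Mtf1. It was the gene of the 8 with a positive log2 fold change, 0.10 (SE 0.099). Its normalized counts were 472, 551, 479, 556 and 484 in wild-type and 525, 647, 536, 583 and 454 in knock-in kidneys. The groups overlapped, with 508 ± 41.8 (SD, n = 5) against 549 ± 71.5 (SD, n = 5), and the sign stayed positive in all 22 alternatives, from 0.043 without knock-in replicate 2 to 0.17 without knock-in replicate 5. Its RefSeq window holds a single match to the element before the start.

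Slc30a7 encodes ZnT7, which moves zinc into the Golgi apparatus. It ranged from 85.4 to 107 normalized counts in wild-type and from 55.7 to 102 in knock-in kidneys, 3 of which were below the lowest wild-type value. The log2 fold change was -0.27 (SE 0.15), and the means of 93.2 ± 7.98 (SD, n = 5) and 78.6 ± 17.7 (SD, n = 5) differed by less than the SD of the knock-in group. Without knock-in replicate 2 the log2 fold change was -0.37, and without knock-in replicate 3 it was -0.15.

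Slc39a14 encodes ZIP14, an importer of zinc that also carries iron and manganese, and was the least abundant of the 8. The 5 wild-type kidneys had 34.7, 37.4, 29.5, 38.6 and 36.3 normalized counts. The 5 knock-in kidneys had 21.8, 31.6, 23.1, 20.8 and 17.5. Of these, 4 were below every wild-type kidney and replicate 2, at 31.6, was above the lowest of them. The means of 35.3 ± 3.54 (SD, n = 5) and 23.0 ± 5.25 (SD, n = 5) differed by a log2 fold change of -0.62 (SE 0.20), close to that of Mt2, but Slc39a14 did not pass the threshold in any alternative that could be fitted. These values rest on 18 to 42 reads per library, and 18 reads have a 95% Poisson interval of 10.7 to 28.4, which covers counting error and not the spread between mice.

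Slc39a8 encodes ZIP8, an importer of zinc, manganese and iron at the cell surface. Its level differed between mice of the same genotype far more than between genotypes. Wild-type kidneys had 159, 234, 180, 255 and 246 normalized counts, and knock-in kidneys had 263, 271, 152, 232 and 144. Low values were found in both groups, in wild-type replicates 1 and 3 and in knock-in replicates 3 and 5. The means were 215 ± 42.6 (SD, n = 5) and 213 ± 60.6 (SD, n = 5), with a log2 fold change of -0.041 (SE 0.18). That sign turned positive when 1 mouse was left out in 4 of 10 cases, wild-type replicates 4 and 5 and knock-in replicates 3 and 5.

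Slc39a5 encodes ZIP5, a basolateral importer of polarized epithelia that is best known from the pancreas and intestine. It had 74.8 to 100.4 normalized counts in wild-type and 55.4 to 100.2 in knock-in kidneys. In the knock-in group, replicates 1 and 5 were at 99.6 and 100.2 and the remaining 3 were between 55.4 and 64.1, below every wild-type kidney. Replicates 1 and 5 also had the highest normalized counts among all kidneys of Sgk1 and of Cfd, the 1 of 4 adipose markers in the table. Sgk1 is on the list of glucocorticoid-response genes, but Klf9, of the same list, had its lowest values in these 2 mice. The part of these genes in the Slc39a5 values was not tested. The log2 fold change was -0.17 (SE 0.18), and it ran from -0.28 without knock-in replicate 5 to -0.073 without knock-in replicate 4. The groups overlapped. In the values with the genotype mean removed, Slc39a5 went up with the number of reads on genes (r = 0.63, 10 mice), and the part of depth in its level was not tested.

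Of the 8 genes, then, Mt1 alone had groups that did not overlap, where 5% of all genes tested had such groups, 2.71% with lower and 2.29% with higher knock-in values. In sign, 7 were lower and 1 was higher in knock-in kidneys, and the median of the log2 fold changes was -0.22 against 0.00046 for all genes tested.

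The rest of the zinc transporter and metallothionein families was taken from lists of 21 names, of which 12 were in the table and tested. Mt3 and Mt4, the metallothioneins of other tissues, were not in the table. The 5 further exporters (Slc30a2, Slc30a4, Slc30a5, Slc30a6 and Slc30a9) had log2 fold changes from -0.21 to 0.33. By limma, edgeR and DESeq2 0 of them passed, and 1, Slc30a2 at 0.33 (SE 0.11), had an unadjusted p under 0.05. The most abundant, Slc30a9, was at 490 ± 30.0 (SD, n = 5) in wild-type and 462 ± 37.3 (SD, n = 5) in knock-in kidneys, with a log2 fold change of -0.086 (SE 0.087). The least abundant, Slc30a4, had a log2 fold change of -0.15 (SE 0.16).

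Of the 7 further importers, 1 passed. Slc39a11, which encodes ZIP11, a transporter of inner membranes, was higher in knock-in kidneys. Its normalized counts were 335, 324, 376, 458 and 350 in wild-type and 474, 444, 533, 457 and 492 in knock-in kidneys. Wild-type replicate 4 was the wild-type kidney that reached into the knock-in range. The log2 fold change was 0.39 (SE 0.10, limma adjusted p = 0.0403), and the adjusted p ran from 0.0113 to 0.228 over the alternatives, of which 11 of 22 passed. Among the library codes 53 to 66 the difference was 0.29 (adjusted p = 0.228, limma). Slc39a1, the most abundant importer, had 644 ± 45.4 (SD, n = 5) against 701 ± 31.3 (SD, n = 5) normalized counts and a log2 fold change of 0.12 (SE 0.080), and Slc39a6, the least abundant, one of 0.13 (SE 0.23). Slc39a13, which encodes ZIP13, did not pass but had an unadjusted p under 0.05, with a log2 fold change of -0.33 (SE 0.12) and 4 of 5 knock-in kidneys below the lowest wild-type kidney, and was named after its values were seen. Over the 12 genes, the median log2 fold change was -0.020.

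**Figure D3:**
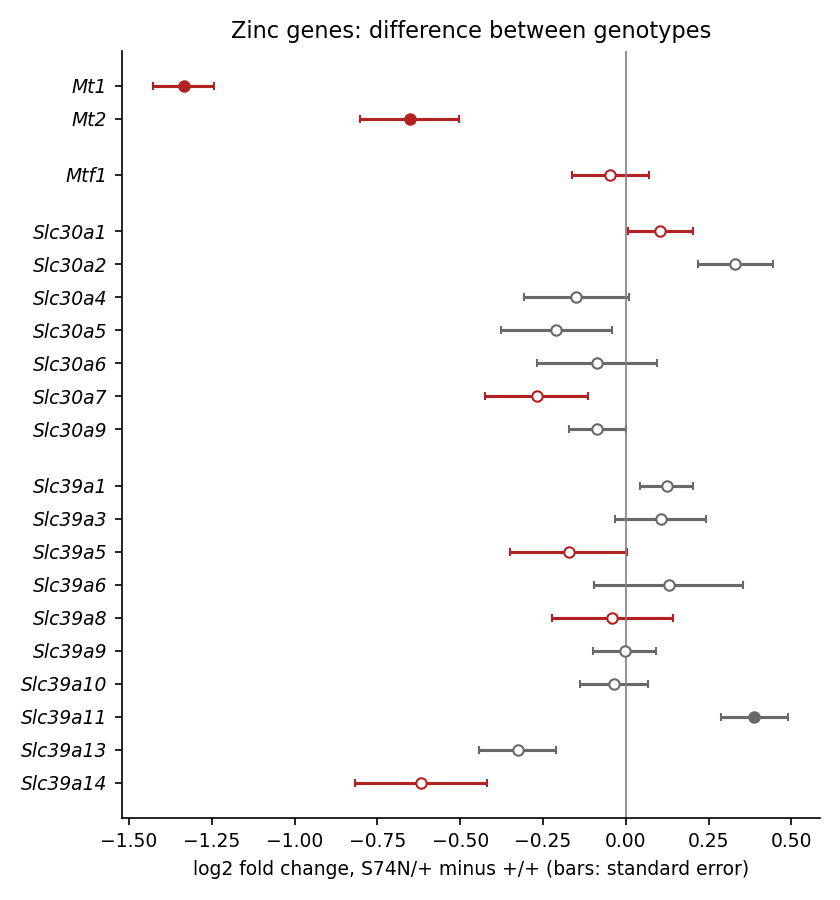
Log2 fold change (x axis, S74N/+ minus +/+) with its standard error for the 8 genes (red) and the 12 other zinc transporters (grey), by family, with filled points for genes that passed the threshold in limma. Mt1 at -1.34 lies farthest to the left, Mt2 at -0.65 and Slc39a14 at -0.62 lie close to each other, and Slc39a11 at 0.39 is the filled point on the right.

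Gene lists for inputs that act on metallothioneins, and for other metals, were read in the same fit. Of 3 further Mtf1 targets tested (Slc39a10, Gclc and Selenow), 0 passed, with log2 fold changes from -0.20 to 0.28 and 0 at an unadjusted p under 0.05. Of 16 genes of iron, copper and manganese handling, 0 passed, with a median of 0.048. In this list 2 genes had an unadjusted p under 0.05, the ferritin light chain Ftl1 (-0.36, SE 0.13) and ceruloplasmin, Cp (0.40, SE 0.14). Of 11 glucocorticoid-response genes, 0 passed, with 4 higher, 7 lower and a median of -0.091. Sgk1 (0.67, SE 0.26) and Klf9 (-0.36, SE 0.13) had an unadjusted p under 0.05. Sgk1 was at 886 and 851 normalized counts in knock-in replicates 1 and 5, the mice with the highest values of the adipose marker Cfd. The other knock-in kidneys were at 381, 317 and 337, within the wild-type range of 255 to 504. Klf9 went the other way, with 1879 and 1901 in replicates 1 and 5, the lowest values of all kidneys. It had 2574 to 2986 in the other knock-in and 2525 to 3657 in the wild-type kidneys. By edgeR and DESeq2, too, 0 genes of these 3 lists passed, and each list had 2 or fewer in every alternative. Ftl1, Cp, Klf9 and Slc30a2 were named after their values were seen.

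Of 10 genes of the oxidative stress response driven by Nrf2, 4 passed as higher in knock-in kidneys and 0 as lower, where 1.67% of all genes tested passed as higher. By sign, 8 were higher and 2 lower, with a median of 0.29. Gstm1, a glutathione transferase, had 3009 ± 83.7 (SD, n = 5) normalized counts in wild-type and 5466 ± 302 (SD, n = 5) in knock-in kidneys, a log2 fold change of 0.86 (SE 0.071, limma adjusted p = 5.4e-07). The log2 fold change of Nqo1, a quinone reductase, was 0.72 (SE 0.13, limma adjusted p = 0.00381), and that of Gsta2, another transferase, was 1.06 (SE 0.24, limma adjusted p = 0.0157). Gclm, a subunit of the enzyme that starts glutathione synthesis, was at 0.31 (SE 0.080, limma adjusted p = 0.0398). Gstm1 passed in all 22 alternatives, Nqo1 in 21, Gsta2 in 19 and Gclm in 11. Gstm1 and Gsta2 belong to families of similar genes, whose reads may be split between relatives. Over the alternatives, the number that passed ran from 1 to 5. Among the 6 that did not pass, Hmox1 was at 0.22 (SE 0.29), Txnrd1 at 0.31 (SE 0.10, limma adjusted p = 0.114), and Nfe2l2, which encodes Nrf2, and its inhibitor Keap1 were at -0.15 (SE 0.10) and -0.056 (SE 0.12). These 4 were named after their values were seen.

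Of 12 acute-phase genes tested, 2 passed as higher and 0 as lower, where 1.67% of all genes tested passed as higher. By sign, 9 were higher and 3 lower, with a median log2 fold change of 0.12. Lcn2, which encodes the iron-binding carrier lipocalin 2 that injured tubules secrete, had 18.8 to 73.0 normalized counts in knock-in kidneys, all above the wild-type values, and a log2 fold change of 1.67 (SE 0.32, limma adjusted p = 0.00406). C3, complement component 3, was at 1.18 (SE 0.31, limma adjusted p = 0.0418) and passed in 12 of 22 alternatives. Its highest values, 488 and 223 normalized counts, were in knock-in replicates 5 and 1, against 89.3 to 142 in the other knock-in and 66.5 to 88.9 in the wild-type kidneys, and without knock-in replicate 5 its log2 fold change was 0.81. The same 2 mice had the highest normalized counts of Cfd (3504 and 807), the 1 of 4 adipose markers in the table. The part of Cfd in the C3 difference was not tested. Of 13 acute-phase genes in the table, Hp was left out by the filter and so was not tested. It had 0 to 6.2 normalized counts in wild-type and 4.2 to 162 in knock-in kidneys. Its highest values, 162 and 68.3, were again in knock-in replicates 5 and 1, and it was named after its values were seen. Of the 62 genes over these lists, zinc families included, 7 passed.

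Markers of tubule segments differed between the same kidneys and are given beside the metallothionein values. Of 4 distal tubule markers, 3 passed as lower, Slc12a3 (log2 fold change -1.20), Pvalb (-3.06) and Trpm6 (-1.84), and Calb1 was at -0.090. Their summed level was 4154 to 4813 normalized counts in wild-type and 2424 to 3280 in knock-in kidneys. The sum of 4 loop of Henle markers was 28383 to 37142 against 13116 to 21455, of which Umod alone made up 20404 to 28356 and 7760 to 13505. Umod (-0.999) and Cldn16 (0.82) passed, and Slc12a1 (-0.22) and Cldn10 (-0.28) did not. Markers of the early proximal tubule went both ways, Slc5a2 at -0.93 and Slc5a12 at -0.95 against Slc22a6 at 0.52, with sums that overlapped, and of 6 late proximal tubule markers 0 passed by limma or edgeR and 1 by DESeq2. Of the remaining kidney lists, Slc4a1 of intercalated cells passed as lower and Synpo of podocytes as higher, Hba-a1 of red cells passed as lower by limma and DESeq2 while 0 red cell markers passed by edgeR, and 0 passed among endothelial, leukocyte and stromal markers (by limma, edgeR and DESeq2). Collecting duct principal cell markers, of which 0 passed by limma and 3 by DESeq2, summed to 744 to 987 in wild-type and 1008 to 1836 in knock-in kidneys. With genotype means removed, the distal tubule sum had r = 0.83 with Mt2 and r = 0.44 with Mt1 (10 mice). Knock-in replicate 5, with the highest distal sum of its group, had the highest Calb1 (2302 normalized counts) and the lowest Slc12a3 (942) of all 10 kidneys, so the sum did not follow the markers that passed there. The loop of Henle sum had r = -0.42 with Mt2 and -0.50 with Mt1, the late proximal tubule sum r = -0.64 and -0.59, the principal cell sum r = 0.75 and 0.74, and the intercalated cell sum r = 0.42 and 0.70. The podocyte sum had r = -0.54 and -0.59, the stromal sum r = 0.68 and 0.42, and the leukocyte sum r = 0.49 and 0.50. The early proximal tubule sum had r = 0.18 with Mt2 and -0.0038 with Mt1, the endothelial sum r = -0.41 and -0.11, and the red cell sum r = -0.31 with each. Cela1 had r = 0.89 with Mt2 and 0.75 with Mt1. It was at 1121 to 1606 normalized counts in wild-type and 965 to 1583 in knock-in kidneys, while the other 6 pancreatic markers were not in the table. The tissue that its reads came from was not tested. The part of these segments in the Mt1 and Mt2 difference was not tested.

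Slc12a3 is also a neighbour of the metallothioneins on chromosome 8. Of 8 tested genes within 200 kb of the span from Mt2 to Mt1, Slc12a3 alone passed, and the remaining 7 had log2 fold changes between -0.52 and 0.14. Nup93 and Gm15889, at -0.46 and -0.52, were the nearest to it in size. These neighbours were named after their values were seen.

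Liver also expresses Mt1, Mt2, Slc39a5 and Slc39a14, so hepatocyte markers were read in these kidneys. All 5 had positive log2 fold changes, from 0.73 to 1.99, and Alb passed by limma. By edgeR 2 passed and by DESeq2 1, and 4 had an unadjusted p under 0.05 in limma. Their sum was 1141 to 1454 normalized counts in wild-type and 1897 to 5024 in knock-in kidneys. With genotype means removed, this sum had r = 0.54 with Mt1 and r = 0.75 with Mt2 (10 mice), and its part in their levels was not tested. Of 4 adipose markers, Adipoq, Plin1 and Lep were not in the table. The remaining marker, Cfd, was at 3504 in knock-in replicate 5 and at 807 in replicate 1, and between 0 and 52.3 in the remaining 8 kidneys. Its log2 fold change was 2.13, and it passed by edgeR and DESeq2 but not by limma. Replicate 5 is also the knock-in kidney with the highest Mt1 and Mt2, and without it the log2 fold changes were -1.39 and -0.79.

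Variation between mice of the same genotype does not contain the genotype difference on which the genes were known. It was tested for the 28 pairs of the 8 genes, on log2 values with the genotype mean removed, by exact permutation of mice within each genotype (14400 permutations, two-sided) and adjustment over the 28 pairs. A single pair passed, Mt1 with Slc39a8. Its Pearson r was -0.96 (exact p = 0.000556, adjusted p = 0.0156, n = 10) and its Spearman rho -0.98 (exact p = 0.00139, adjusted p = 0.0389). Kidneys with more Slc39a8 had less Mt1 than others of their genotype. The relation was found within each genotype, with r = -0.94 among the 5 wild-type and r = -0.98 among the 5 knock-in mice.

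Without the 2 mice farthest from the median of Mt1, r was -0.95. On Slc39a8 the mice left a gap, 4 of them (2 of each genotype) at -0.23 or lower and 6 at 0.15 or higher, and r was -0.84 within the 6 mice above the gap and -0.60 within the 4 below it. Among library codes 53 to 66, r was -0.98 with 7 mice (exact permutation p = 0.0139, adjusted p = 0.162). When 1 mouse at a time was left out, r stayed between -0.98 and -0.96, but with fewer permutations the adjusted p ran from 0.0194 to 0.0778 (exact permutation), so the call was lost without wild-type replicate 2 and without knock-in replicates 2, 3, 4 and 5. With genotype means removed, Mt1 and Slc39a8 had r = 0.0026 and 0.084 with the mitochondrial share of reads. With the reads on genes they had r = -0.082 and 0.094, and with the library code r = 0.23 and -0.19. The mitochondrial share itself had a lower median in knock-in kidneys, and these values do not cover that difference. Of 9135 genes that averaged 50 normalized counts or more, 36 had an r with Mt1 below -0.9 and Slc39a8 had the fifth lowest, so the relation is not particular to this transporter. With Slc39a8, Cela1 had r = -0.67 and the sum of principal cell markers r = -0.64. The sum of intercalated cell markers had r = -0.58 and that of late proximal tubule markers r = 0.49. Each was opposite in sign to its r with Mt1. With r = -0.96 between Mt1 and Slc39a8, these signs were fixed in advance and carry no further information. The part of these markers in the relation was not tested.

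**Figure D4:**
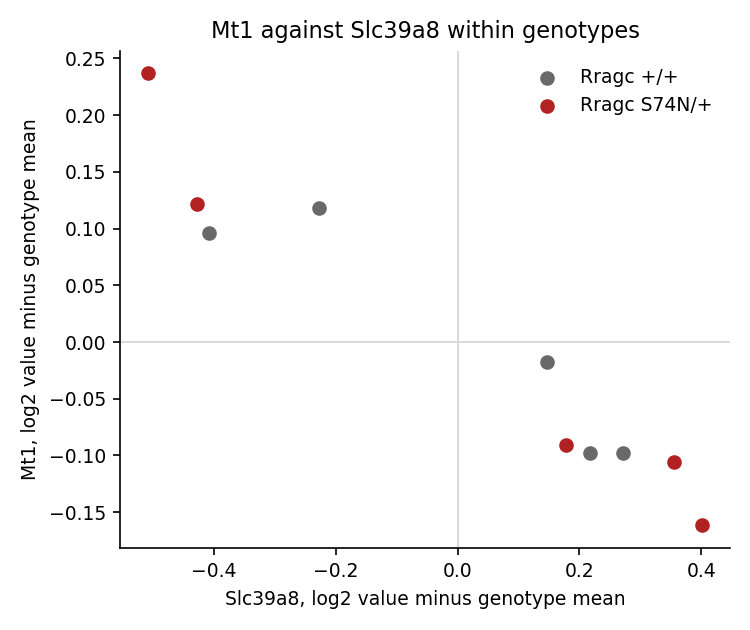
Log2 value of Mt1 minus the mean of its genotype (y axis) against the same for Slc39a8 (x axis), 1 point per mouse, +/+ in grey and S74N/+ in red. The 4 mice on the left, 2 of each genotype, have Mt1 above the mean of their genotype, and the 6 on the right have it below.

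Mt1 and Mt2 did not pass this test as a pair. Their r was 0.67 (exact p = 0.0592, adjusted p = 0.207, n = 10), their rho 0.47 (exact p = 0.201, adjusted p = 0.469), with r = 0.78 among the 5 wild-type and r = 0.62 among the 5 knock-in mice. When 1 mouse was left out, r ran from 0.36 without knock-in replicate 5 to 0.80 without knock-in replicate 3. Of 9135 genes, 392 had a higher r with Mt1 than Mt2 did. Mtf1 had r = -0.75 with Mt1 (exact p = 0.0309, adjusted p = 0.199, n = 10) and Slc30a1 had r = -0.77 (exact p = 0.0247, adjusted p = 0.199, n = 10). Of the 28 pairs, 6 had an unadjusted p under 0.05 by Pearson and 4 by Spearman, with 15 positive and 13 negative values of r.

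The genes most like Mt1 across the 10 mice, by Pearson r of the values with genotype means removed, were Ssr1 (0.94), Hdlbp (0.94), Rbm8a (0.93), Myo7a (0.92) and Gmfb (0.92). Their log2 fold changes between genotypes lay between -0.032 and 0.19, unlike that of Mt1. Those most like Slc39a5 were Sgk1 (0.97), Tkt (0.96), S100a16 (0.96), Zbtb41 (0.95) and Sbf1 (0.94). These values are a description, with 10 mice and all genes read from the same libraries.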

How the data were processed

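RNA of whole kidneys was measured in 5 Rragc+/+ and 5 Rragc S74N/+ mice aged 3 months, grouped by the genotype in the labels. Replicates are numbered in deposit order. Per the submitters' processing notes and the study's methods, the authors checked reads with FastQC 0.11.7, aligned them with TopHat2 2.0.10, Bowtie 1.0.0 and SAMtools 0.1.19 to GRCm39 (3 mismatches and 20 multiple hits allowed), counted them with strand by HTSeq 0.6.1 on GENCODE vM26, and tested them with DESeq. The deposited values are a signal (a size-factor-normalized count) for each gene in each library. Size factors were 0.8818 to 1.124 in Rragc+/+ and 0.9516 to 1.076 in Rragc S74N/+ libraries, and 100% of the values were whole reads within 0.01 read once multiplied back. Each of the 10 columns was assigned to its mouse. The lowest gene mean was 5.64, so a gene outside the table was not analysed here.

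Values were tested as log2(value + 1) with limma 3.58.1 in R 4.3.3 (trend, two-sided, Benjamini-Hochberg, threshold 0.05) in the 13197 genes with at least 10 normalized counts in at least 5 mice, without covariates. This scale understates the fold of low genes. The members, lists and tests were chosen with earlier results of these data known. Named genes are the 8 genes, Rragc and list members that passed (4 per list at most, by p). The most and least abundant zinc transporters and the 5 genes most like Mt1 and Slc39a5 are also named. Others with values given, Calb1, Slc12a1, Cldn10, Cfd and Cela1 included, were named after their values were seen. Alternatives were pseudocounts of 0.5 and 5, no filter, a mean of at least 50, TMM, quantile normalization, no trend, robust variances, edgeR 4.0.16 and DESeq2 1.42.0 on recovered reads (480 and 648 genes passed), library code run, codes 53 to 66 and leaving out each mouse. On data simulated for this comparison with 200 of 13221 genes changed by a factor of 2, limma recovered 98%, edgeR 98% and DESeq2 95.5%. Correlations were computed with scipy 1.17.1, numpy 2.4.6 and pandas 2.3.3 in python 3.11.15, and plots drawn with matplotlib 3.10.9.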

Additional observations from a re-analysis of the deposited data

Results flagged for a closer look

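Among 42 groups of 5 kidneys (8 genes, 12 further named genes and the Mt1 to Mt2 ratio, in each genotype), the gap of the highest or lowest kidney to its nearest neighbour, as a share of the range, exceeded Dixon's 95% critical value of 0.71 in 2. Chance gives about 1 in 20 groups. None of the 2 was in Mt1, Mt2, Mtf1 or the 5 transporters chosen with them. Slc39a1 in Rragc S74N/+ replicate 1 was at 645 normalized counts, below the 712 to 719 of its group (share 0.911). Lcn2 in Rragc S74N/+ replicate 5 was at 73.0, above the 18.8 to 27.5 of its group (share 0.839), and its log2 fold change without that mouse was 1.35.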

How the results depend on the processing

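The number of genes that passed, 487, became 291 with limma without a trend and 832 with the library code run as a covariate, and ran from 295 to 466 when a mouse was left out, lowest without Rragc+/+ replicate 5 (310 without replicate 4). Of the calls, 45.2% were higher, against 35.4% with no trend, 40.9% with quantile normalization and 52.2% with the run covariate (434 higher, 398 lower). The 7 calls in the pathway lists became 10 with the run covariate, 3 with no trend, 2 among the codes 53 to 66, and 4 to 6 when a mouse was left out, with 4 without Rragc+/+ replicate 5 or Rragc S74N/+ replicates 1 or 4. The single correlated pair became 0 pairs among the codes 53 to 66, an alternative added after the values were seen. With 144 permutations there, a single pair could not pass, so this loss decides nothing. When a mouse was left out, 0 to 2 pairs passed. The log2 fold change of Mtf1 reversed to 0.0076 without Rragc S74N/+ replicate 3, and that of Slc39a8 to 0.065 and 0.086 without Rragc S74N/+ replicates 3 and 5, and to 0.027 and 0.013 without Rragc+/+ replicates 4 and 5. When a mouse was left out, Mtf1 ran from -0.094 to 0.0076 and Slc39a8 from -0.14 to 0.086. The causes were not tested. Mt1 ran from -1.39 to -1.28 over all alternatives. Slc39a14 could not be fitted under a mean of at least 50. No scaling moved the median log2 fold change of all genes by more than 0.0061. No paired analysis was possible because the labels give no pairing between mice of different genotypes. Values of about 20 normalized counts, as for Slc39a14 and Lcn2, are limited by depth.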
